A study of Mus musculus with 39 samples.

Results

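The Rab genes encode the small GTPases that give each membrane compartment of the cell its identity, and the 41 gene entries whose symbol is Rab followed by a number and, where present, a member letter were described here, out of 10915 entries in a table of corrected expression values of sorted mouse microglia. Proteins that only bind to Rabs were not counted among them. The rule uses the symbol alone and no measured value, although it was set with earlier results of these data known.

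A Rab protein cycles between a GTP-bound form, which sits on a membrane and recruits effectors such as tethers, motors and sorting adaptors, and a GDP-bound form that is drawn off the membrane. Exchange factors switch Rabs on, GTPase-activating proteins switch them off, and escort proteins and a prenyl transferase attach the lipid anchor. In microglia, which are the macrophages of brain tissue, this machinery moves engulfed material from the phagosome to the lysosome, returns receptors to the cell surface and carries cytokines and vesicles out of the cell.

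The samples came from female C57BL/6J mice, either hemizygous for the APP23 transgene or wildtype littermates. APP23 is human amyloid precursor protein with the KM670/671NL mutation, driven by the Thy-1 promoter, which is active in neurons. At 3 months of age all animals received 4 daily intraperitoneal injections. In the PBS groups 4 were vehicle, in the 1xLPS groups 1 was bacterial lipopolysaccharide (LPS, from Salmonella enterica serotype typhimurium, 500 µg/kg) and 3 were vehicle, and in the 4xLPS groups all 4 were LPS at that dose. At 9 months microglia were isolated by cell sorting, and polyadenylated RNA was amplified and sequenced. Of 39 libraries in all, the PBS groups held 9 (wildtype) and 6 (APP23), the 1xLPS groups 9 and 5, and the 4xLPS groups 6 and 4, in the same order. The comparisons ask whether treatment at 3 months or the transgene left a difference at 9 months. Libraries of each genotype were pooled for sequencing, per the labels' protocols, and samples are not assigned to lanes in the labels. Lane and genotype therefore cannot be told apart in any APP23 minus wildtype difference below. Whether each numbered library was a separate mouse is not said in the labels. The p-values therefore rest on the library-to-library spread left after the values were corrected, some of which may be technical. Any spread that the correction removed is not counted in them, so they may be too small. As each library is RNA of sorted cells in bulk, fewer cells with a transcript and less transcript per cell cannot be told apart.

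Values are corrected expression levels read as log2, so that a difference of 1 would be a doubling, and the library means lay between 9.00 and 9.01. Reads per library are unknown from these values, and no source used here says whether the correction shrank or widened differences. Folds are those of the corrected values. Of the microglial markers, 9 of 9 had an entry (mean level 10.4 to 13.7). Markers of other cells were sparser, with an entry for 1 of 5 neuronal, 1 of 5 astrocyte, 3 of 5 oligodendrocyte, 2 of 4 endothelial, 2 of 4 border macrophage, 1 of 4 monocyte and neutrophil and 0 of 4 lymphocyte markers. A difference was called at an adjusted p under 0.05 in limma, adjusted over all 10915 entries and with the 24 residual degrees of freedom that the table still holds out of the 33 counted from the number of libraries.

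The Rab genes differed little between the 6 groups. The gap between the highest and the lowest group mean had a median of 0.041 over the 41 genes on the log2 scale, beside 0.051 over all entries. It was smallest for Rab10 at 0.010 and largest for Rab6b at 0.12, a 1.09-fold range. The residual standard deviation between libraries of a group ranged from 0.016 for Rab7 to 0.070 for Rab3d, and 25 of the 41 genes lay below the median of all entries. In the test for any difference among the 6 groups, 1 of 41 Rab genes passed, Rab27a, where 2.13% of all entries did. At an unadjusted p under 0.05 there were 7 Rab genes, beside 21.2% of all entries. With 33 degrees of freedom 7 Rab genes passed, among 21.1% of all entries.

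**Figure D1:**
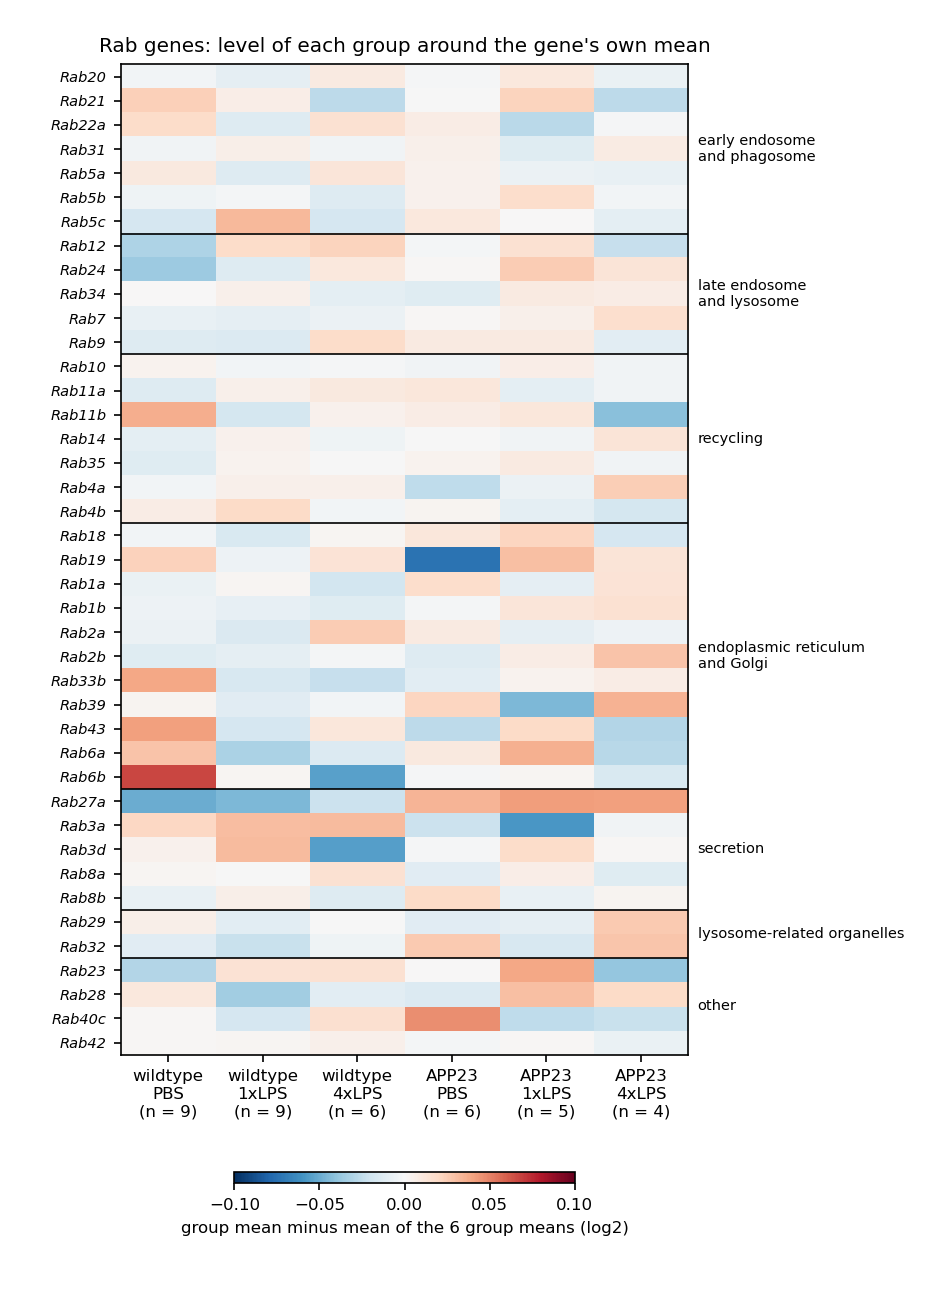
Group mean of each of the 41 Rab genes (vertical axis, ordered by compartment) in each of the 6 groups (horizontal axis), as the difference from the mean of that gene's 6 group means, in log2 units on the colour scale. Rab27a is low in all 3 wildtype groups and high in all 3 APP23 groups, Rab6b runs from high in wildtype PBS to low in wildtype 4xLPS, and Rab19 is low in APP23 PBS.

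**Figure D2:**
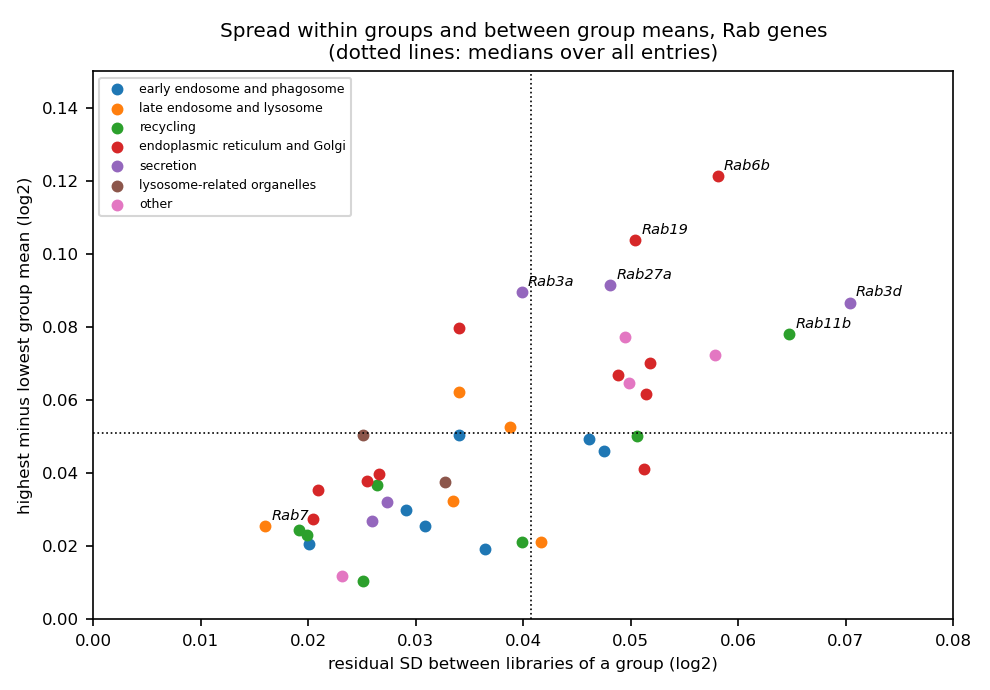
Residual standard deviation between libraries of a group (horizontal axis, log2) against the gap between the highest and lowest group mean (vertical axis, log2) for the 41 Rab genes, coloured by compartment, with the medians over all entries as dotted lines. Rab6b has the largest gap and Rab7 the smallest standard deviation.

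On the way inwards, none of the 7 genes of early endosomes and phagosomes passed any test. Their gaps between group means ran from 0.019 for Rab20, a regulator of phagosome maturation, to 0.050 for Rab21, which works in integrin endocytosis. The Rab5 isoforms drive fusion of early endosomes. Rab5a had group means of 8.65 to 8.68 and Rab5b of 8.71 to 8.74. Rab5c stood at 8.41 ± 0.034 in wildtype PBS (SD, n = 9) and 8.46 ± 0.032 in wildtype 1xLPS (n = 9), a difference of 0.049 (SE 0.022, adjusted p = 0.279). Rab31, which acts between the trans-Golgi and endosomes, had group means of 11.54 to 11.56. Rab21 ranged from 6.81 to 6.90 in wildtype PBS with a median of 6.85, and from 6.75 to 6.85 in wildtype 4xLPS with a median of 6.80. The groups overlapped, with 5 of 6 libraries of the 4xLPS group below the PBS mean. The difference was -0.050 (SE 0.018, adjusted p = 0.135), which passed only with 33 degrees of freedom (adjusted p = 0.0327). Rab22a, which sorts cargo at early endosomes, had group means of 8.59 to 8.64.

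The 5 genes of late endosomes and lysosomes did not pass either. Rab7, the regulator of fusion with the lysosome, had group means of 10.27 to 10.30, the narrowest spread between libraries of the 41 genes. Rab9, which returns mannose 6-phosphate receptors to the Golgi, ran from 8.32 to 8.35 and Rab34, which acts in lysosome positioning, from 8.88 to 8.90. Rab12, which directs recycling receptors to degradation, averaged 8.37 ± 0.028 in wildtype PBS (SD, n = 9), 8.42 ± 0.029 in wildtype 1xLPS (n = 9) and 8.42 ± 0.032 in wildtype 4xLPS (n = 6). Those differences from PBS were 0.049 (SE 0.019, adjusted p = 0.199) and 0.053 (SE 0.021, adjusted p = 0.179). Rab24, linked to autophagy, was lowest in wildtype PBS at 9.65 ± 0.021 (SD, n = 9) and highest in APP23 1xLPS at 9.71 ± 0.020 (n = 5). It passed the 6-group test only with 33 degrees of freedom (adjusted p = 0.0346, and 0.199 with 24). Exons of Rab24 share 1258 bases with Prelid1 on the opposite strand, and the library kits do not mark strand, so reads of the overlap cannot be told apart and its level is uncertain.

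Of the 7 recycling genes none passed. Rab10, which carries Toll-like receptor 4 to the surface in macrophages, had the smallest gap between group means of all 41 genes, with means of 10.67 to 10.68. Rab11a, of the recycling endosome, spanned 10.68 to 10.71 and Rab14, of the same route, 11.23 to 11.25. Rab4b, of fast recycling, spanned 9.79 to 9.83, and Rab35, which also serves fast recycling, 8.83 to 8.85. Of their paralogues, Rab11b had the widest gap of the set at 0.078, with means of 9.58 to 9.66, but also a residual standard deviation of 0.065. Rab4a spanned 6.86 to 6.91.

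Of the 11 genes of the endoplasmic reticulum and Golgi, 2 passed in a comparison of a pair of groups. Rab6b, a Golgi Rab that is abundant in brain and works in retrograde transport, fell after 4 injections of LPS in wildtype mice. In wildtype PBS its level ran from 10.18 to 10.32 with a median of 10.26, in wildtype 1xLPS from 10.15 to 10.29 with a median of 10.18, and in wildtype 4xLPS from 10.10 to 10.20 with a median of 10.14. All 6 libraries of the 4xLPS group lay below the PBS mean, yet the groups overlapped through 1 PBS library at 10.18. The 4xLPS minus PBS difference was -0.12 (SE 0.029, 95% interval -0.18 to -0.062, adjusted p = 0.0338), a 0.919-fold level. It was the only 1 of 41 Rab genes called there, where 1.51% of all entries passed and 0.632% passed as lower. After 1 injection the difference was -0.065 (SE 0.026, adjusted p = 0.230), and that between 4 and 1 injections was -0.056 (SE 0.029, adjusted p = 0.586).

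In APP23 mice Rab6b showed no such order. Its level ran from 10.12 to 10.28 in APP23 PBS with a median of 10.19. Under PBS the APP23 minus wildtype difference of Rab6b was -0.068 (SE 0.029, adjusted p = 0.210), not called. The APP23 1xLPS libraries read 10.22, 10.23, 10.20, 10.26 and 10.09, and the APP23 4xLPS libraries 10.23, 10.21, 10.10 and 10.19. The 3 groups overlapped throughout. The 4xLPS minus PBS difference was -0.014 in APP23 (SE 0.036, adjusted p = 0.960), and the test of the difference between genotypes gave 0.11 (SE 0.046, adjusted p = 0.270), so a difference in response was not shown. The wildtype call was lost without wildtype 4xLPS library 1 (adjusted p = 0.0592), 2 (0.0538) or 6 (0.0530). In that comparison Mrc1 differed by -0.11, F13a1 by -0.014 and Ccr2 by -0.079, and their part in the result was not tested.

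Rab6a, the widely expressed paralogue of Rab6b, shares 78.4% of coding bases with it, the closest pair among the 820 pairs of members, with no identical run longer than 14 bases. Rab6a ran from 8.93 to 9.08 in wildtype PBS (median 9.01), 8.86 to 9.00 in wildtype 1xLPS (median 8.96) and 8.92 to 9.01 in wildtype 4xLPS (median 8.97). All 9 libraries of the 1xLPS group lay below the PBS mean, with overlap. That difference was -0.060 (SE 0.023, adjusted p = 0.197), and the 4xLPS minus PBS difference was -0.043 (SE 0.025, adjusted p = 0.395). Rab6a shares 708 exonic bases with Mrpl48 on the opposite strand. The promoter windows of the pair, from 250 bases before to 50 after the start (RefSeq, GRCm38.p6, plus strand), are shown side by side because the paralogues are close in coding sequence. The windows themselves were not aligned. Capitals mark matches, on either strand, to the GC box GGGCGG, to the CCAAT box, to the E-box CACGTG or to GAGGAA, a core of PU.1 sites. The Rab6b window at chr9:103111824-103112123 has 78.7% G and C with 1 GGGCGG and 1 GAGGAA match. The Rab6a window at chr7:100607336-100607635 has 62.7%, with 2 GAGGAA and 2 CCAAT matches, of which 1 of each share a base.
Rab6b: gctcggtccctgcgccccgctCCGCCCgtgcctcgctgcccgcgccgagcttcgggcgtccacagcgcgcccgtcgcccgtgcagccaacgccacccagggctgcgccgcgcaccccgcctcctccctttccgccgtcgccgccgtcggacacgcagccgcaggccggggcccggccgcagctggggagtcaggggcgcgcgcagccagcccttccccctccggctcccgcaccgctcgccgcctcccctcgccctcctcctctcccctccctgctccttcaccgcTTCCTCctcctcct
Rab6a: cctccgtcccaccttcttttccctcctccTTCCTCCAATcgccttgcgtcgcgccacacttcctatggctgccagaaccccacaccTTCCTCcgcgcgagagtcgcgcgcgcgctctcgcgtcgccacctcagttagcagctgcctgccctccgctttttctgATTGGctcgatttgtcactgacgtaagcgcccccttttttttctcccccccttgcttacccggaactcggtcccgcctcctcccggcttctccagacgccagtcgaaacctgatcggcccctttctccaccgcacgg

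Rab19, a little-studied Rab located at the Golgi, was lower in APP23 than in wildtype mice under PBS. Wildtype PBS libraries ran from 6.65 to 6.77 with a median of 6.70, and APP23 PBS libraries from 6.56 to 6.66 with a median of 6.62. All 6 APP23 libraries lay below the wildtype mean, and the groups overlapped only between 6.65 and 6.66. The difference was -0.097 (SE 0.025, 95% interval -0.15 to -0.045, adjusted p = 0.0389), a 0.935-fold level. Rab19 was 1 of 41 Rab genes called, beside 2.51% of all entries and 1.15% called as lower. The level is low, at the 10.0 percentile of all entries, where the deposited values hold no read count to show its precision.

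With LPS the APP23 libraries did not share that low level. The APP23 1xLPS libraries read 6.72, 6.70, 6.72, 6.70 and 6.75 and the APP23 4xLPS libraries 6.69, 6.66, 6.75 and 6.70. Every one of these 9 was above every APP23 PBS library, and groups did not overlap, in either direction, for 1.97% and 2.44% of all entries in these comparisons. The differences were 0.10 (SE 0.029, adjusted p = 0.296) and 0.086 (SE 0.031, adjusted p = 0.467) and did not pass. With 33 degrees of freedom the first passed (adjusted p = 0.0394). In wildtype mice the corresponding differences were -0.029 (SE 0.023) and -0.0097 (SE 0.025). The difference in response between genotypes was 0.13 after 1 injection (SE 0.037, adjusted p = 0.140) and 0.096 after 4 (SE 0.040, adjusted p = 0.258), the former passing only with 33 degrees of freedom (adjusted p = 0.0182). All comparisons of Rab19 that involve APP23 PBS share the same 6 libraries. The call against wildtype PBS was lost without wildtype PBS library 6 (adjusted p = 0.0515) or 8 (0.0546) and without APP23 PBS library 1 (0.0733), 2 (0.0724) or 6 (0.0552). In the same comparison under PBS, Ccr2, the 1 monocyte marker of 4 with an entry, differed by -0.23 and Mrc1, of the border macrophages, by -0.12, both more than Rab19, and F13a1 by 0.085. Their part in the result was not tested. The Rab19 window at chr6:39381103-39381402 (plus strand, 55.7% G and C) is also shown, a choice made after the values were seen. It holds no match to any of the 4 motifs.
Rab19: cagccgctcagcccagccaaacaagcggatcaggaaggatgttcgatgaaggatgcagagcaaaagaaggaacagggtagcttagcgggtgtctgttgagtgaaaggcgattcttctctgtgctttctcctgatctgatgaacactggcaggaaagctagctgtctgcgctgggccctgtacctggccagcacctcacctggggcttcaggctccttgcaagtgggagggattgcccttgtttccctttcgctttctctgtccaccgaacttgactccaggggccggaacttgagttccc

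**Figure D3:**
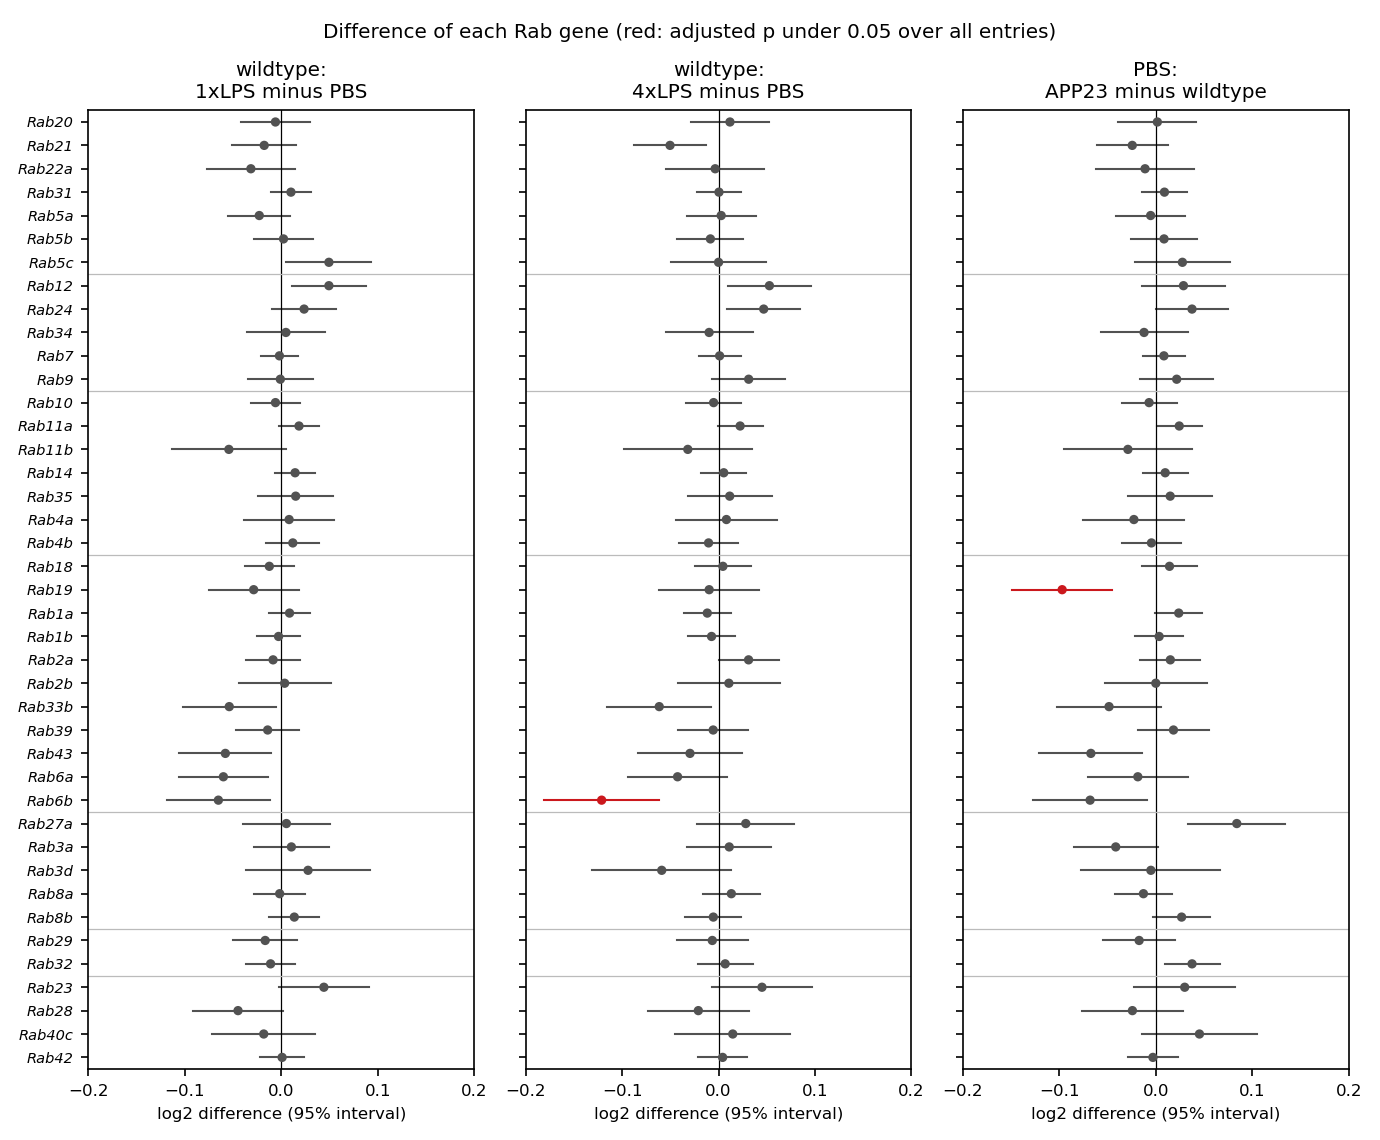
Log2 difference of each of the 41 Rab genes (vertical axis) with its 95% interval (bars, horizontal axis) for wildtype 1xLPS minus PBS, wildtype 4xLPS minus PBS and, under PBS, APP23 minus wildtype. The intervals of Rab6b (4xLPS) and Rab19 (APP23) are drawn in red, and of the other points only that of Rab27a under PBS lies farther than 0.07 from 0.

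The other 8 genes of the endoplasmic reticulum and Golgi, beside both Rab6 genes and Rab19, did not pass. Rab1a and Rab1b, which carry cargo from the endoplasmic reticulum to the Golgi, had group means of 11.10 to 11.14 and 10.61 to 10.63. Rab2a, of the same interface, was 9.60 to 9.64 and Rab2b 9.96 to 10.00. Rab18, found on lipid droplets, was 10.67 to 10.71. Rab33b, which binds the autophagy protein Atg16l1, was highest in wildtype PBS at 9.47 ± 0.039 (SD, n = 9) and lowest in wildtype 4xLPS at 9.41 ± 0.049 (n = 6), a difference of -0.062 (SE 0.026, adjusted p = 0.218). Rab43, a Golgi Rab, was 10.38 ± 0.052 in wildtype PBS and 10.31 ± 0.037 in APP23 PBS (n = 6), a difference of -0.067 (SE 0.026, adjusted p = 0.164).

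Rab39, which acts in phagosome acidification in macrophages, was counted here with the endoplasmic reticulum and Golgi. It had the smallest p of the 41 Rab genes for APP23 4xLPS minus 1xLPS. Its libraries read 10.48, 10.47, 10.45, 10.45 and 10.49 in APP23 1xLPS and 10.60, 10.56, 10.54 and 10.51 in APP23 4xLPS. Every 4xLPS library was above every 1xLPS library. Groups that did not overlap, in either direction, were found here for 5.73% of all entries and, among Rabs, also for Rab18 and Rab23, which were lower in 4xLPS. The difference was 0.080 (SE 0.023, adjusted p = 0.227) and passed only with 33 degrees of freedom (adjusted p = 0.0310). APP23 PBS, at 10.48 to 10.60 with a median of 10.54, overlapped both groups.

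Among the 5 secretion genes, Rab27a had a higher group mean in APP23 than in wildtype under each treatment. Rab27a docks lysosome-related organelles and multivesicular endosomes at the plasma membrane, a step of exosome release. Its level ran from 9.97 to 10.07 in wildtype PBS (median 10.03), 9.99 to 10.13 in wildtype 1xLPS (median 10.02) and 10.02 to 10.10 in wildtype 4xLPS (median 10.06). APP23 PBS libraries ran from 10.07 to 10.18 with a median of 10.10. The APP23 1xLPS libraries read 10.13, 10.13, 10.11, 10.16 and 10.06, and the APP23 4xLPS libraries 10.17, 10.12, 10.06 and 10.13. All 15 APP23 libraries were above the median of the 24 wildtype libraries, 10.03, and 16 wildtype libraries were below every APP23 library, although the ranges overlapped.

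Rab27a was the Rab gene that passed the test over the 6 groups (F = 5.68, adjusted p = 0.0469). Within a treatment the APP23 minus wildtype differences were 0.084 under PBS (SE 0.024, adjusted p = 0.0581), 0.086 after 1xLPS (SE 0.026, adjusted p = 0.129) and 0.063 after 4xLPS (SE 0.030, adjusted p = 0.516), none of them past the threshold. The first 2 passed with 33 degrees of freedom (adjusted p = 0.00882 and 0.0212). The response to LPS did not separate from 0 in either genotype. It was 0.0053 after 1xLPS and 0.028 after 4xLPS in wildtype (SE 0.022 and 0.024), and 0.0075 and 0.0073 in APP23 (SE 0.028 and 0.030). The differences in response between genotypes were 0.0022 (95% interval -0.071 to 0.075) and -0.021 (-0.10 to 0.058).

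A comparison of genotypes averaged over the 3 treatments was added after these values had been seen, so its p-values describe a pattern already noticed. In it Rab27a was higher in APP23 by 0.078 (SE 0.016, 95% interval 0.046 to 0.11, adjusted p = 0.0154), a 1.06-fold level. Rab27a was the 1 Rab gene called as higher, beside 0.623% of all entries, and Rab3a the 1 called as lower, beside 0.559%, with 1.18% called in all. These 2 and Rab32 were called with 33 degrees of freedom, beside 6.07% of all entries. Leaving out any 1 of the 39 libraries kept the averaged difference of Rab27a called (adjusted p 0.00401 to 0.0239). The 6-group call was lost without wildtype PBS library 4 (adjusted p = 0.0515) or 8 (0.0531), APP23 1xLPS library 1 (0.0580), 2 (0.0557), 3 (0.0512) or 4 (0.0589), or APP23 4xLPS library 1 (0.0503). Of the markers of other cell types, Ccr2, the 1 monocyte marker with an entry of 4 listed, also passed the 6-group test (adjusted p = 0.0496). Its group means were 9.22, 9.12 and 9.14 in wildtype PBS, 1xLPS and 4xLPS, and 8.99, 8.95 and 9.08 in APP23. In the averaged comparison Ccr2 differed by -0.15, and the border macrophage markers Mrc1 and F13a1 by -0.11 and -0.019. The endothelial markers Kdr and Pecam1 differed by 0.062 and 0.0038. The part of these markers in the result was not tested. Lane and genotype cannot be told apart here either, as libraries of each genotype were pooled for sequencing and the labels assign no lanes. The same holds for the genotype differences of Rab19, Rab3a, Tbc1d10c, Chml and Tbc1d9b. The Rab27a window at chr9:73044560-73044859 (plus strand, 61.3% G and C) holds 1 GGGCGG match and none of the other 3 motifs.
Rab27a: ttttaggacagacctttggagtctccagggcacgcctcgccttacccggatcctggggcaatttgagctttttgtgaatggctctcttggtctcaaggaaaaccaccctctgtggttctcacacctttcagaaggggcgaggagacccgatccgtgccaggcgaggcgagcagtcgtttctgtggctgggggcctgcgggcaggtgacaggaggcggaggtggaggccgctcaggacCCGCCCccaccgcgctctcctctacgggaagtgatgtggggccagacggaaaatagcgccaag

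**Figure D4:**
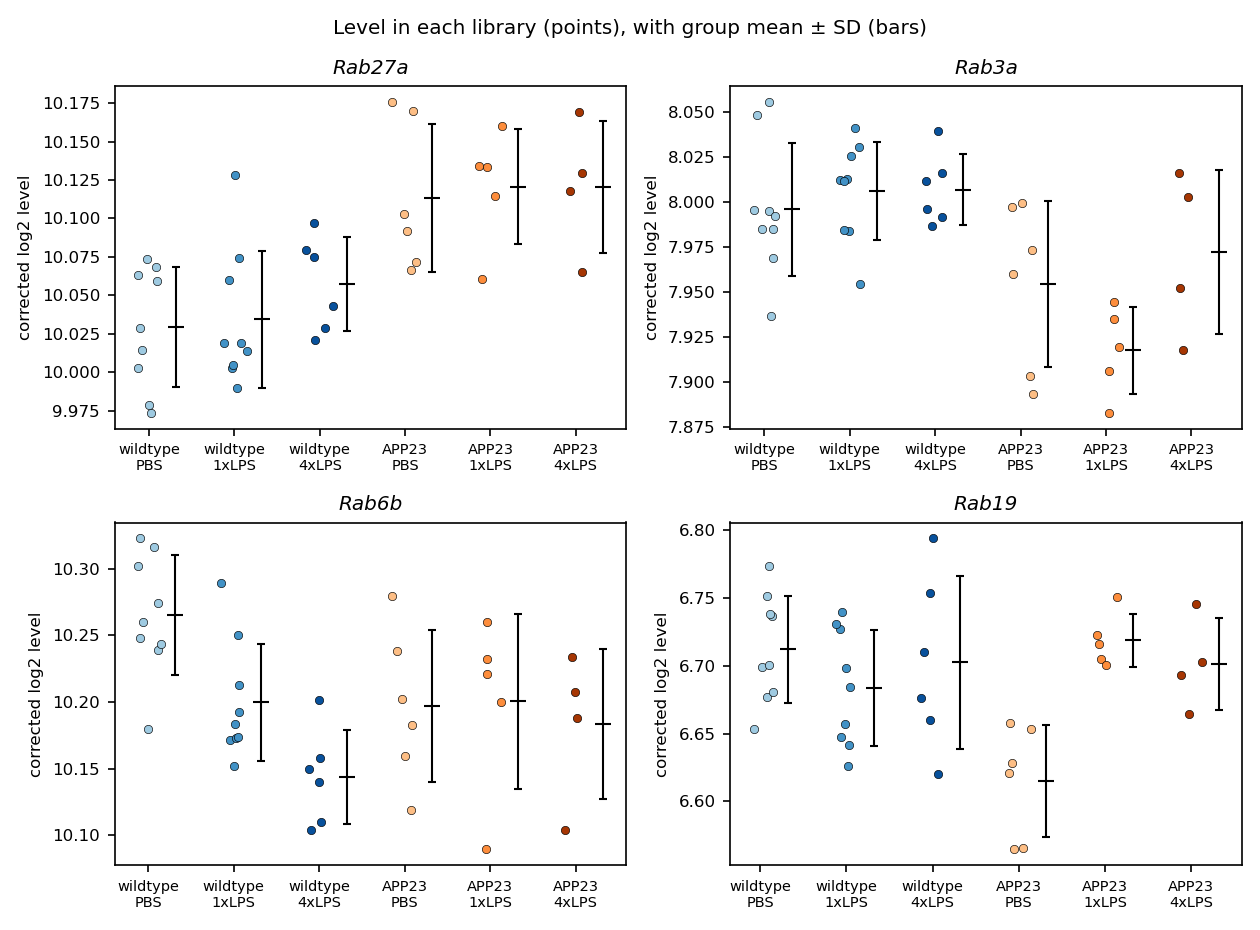
Corrected log2 level of Rab27a, Rab3a, Rab6b and Rab19 in each library (points, vertical axis) by group (horizontal axis), with the group mean ± SD as bars. All 15 APP23 points of Rab27a lie at or above 10.06, and the 5 APP23 1xLPS points of Rab3a lie below every wildtype 1xLPS point.

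Rab3a is best known for the release of synaptic vesicles in neurons. It was called as lower in APP23 in the average over treatments, which was added after its values were seen. With 24 degrees of freedom it was called in no planned test. Its planned test over the 6 groups gave an adjusted p of 0.0806, and of 0.00580 with 33 degrees of freedom. Wildtype PBS libraries ran from 7.94 to 8.06 (median 7.99), wildtype 1xLPS from 7.95 to 8.04 (median 8.01) and wildtype 4xLPS from 7.99 to 8.04 (median 8.004). APP23 PBS libraries ran from 7.89 to 7.999 with a median of 7.97. The APP23 1xLPS libraries read 7.88, 7.91, 7.92, 7.94 and 7.93, and the APP23 4xLPS libraries 8.02, 8.003, 7.95 and 7.92. The 5 APP23 1xLPS libraries were below every wildtype 1xLPS library, where 1.67% of all entries had groups that did not overlap in either direction. The other APP23 groups overlapped their wildtype counterparts, and 11 of 15 APP23 libraries were below the wildtype median.

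The averaged genotype difference of Rab3a was -0.055 (SE 0.013, 95% interval -0.083 to -0.028, adjusted p = 0.0395), a 0.962-fold level. Within a treatment the differences were -0.042 under PBS (SE 0.021, adjusted p = 0.302), -0.089 after 1xLPS (SE 0.022, adjusted p = 0.0710) and -0.035 after 4xLPS (SE 0.026, adjusted p = 0.711). The difference after 1xLPS passed only with 33 degrees of freedom (adjusted p = 0.00651). The averaged call was lost without APP23 1xLPS library 1 (adjusted p = 0.0564) or APP23 4xLPS library 3 (0.0560) or 4 (0.0701). The level of Rab3a lies at the 23.6 percentile of all entries. Of 5 neuronal markers only Rbfox3 had an entry, with group means of 5.62 to 5.70 and no difference that passed over the 6 groups (adjusted p = 0.239), and its part in the result was not tested. Ccr2 of the monocytes (-0.15) and Mrc1 of the border macrophages (-0.11) were lower in APP23 in the same average, as Rab3a was, while F13a1, the other border macrophage marker with an entry, differed by -0.019. Their part in the result was not tested either. Exons of Rab3a share 29 bases with Mpv17l2 on the opposite strand.

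The other secretion genes did not pass. Rab3d, a Rab of secretory granules and the paralogue of Rab3a, had group means of 7.95 to 8.04 with the highest residual standard deviation of the 41 genes. Rab8a and Rab8b, which carry vesicles to the plasma membrane, stayed within 10.45 to 10.47 and 11.75 to 11.79.

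Of the lysosome-related pair, Rab32, which serves melanosomes and host defence vacuoles, averaged 10.61 ± 0.027 in wildtype PBS (SD, n = 9) and 10.64 ± 0.018 in APP23 PBS (n = 6). All 6 APP23 libraries were above the wildtype mean, with overlap. The difference was 0.038 (SE 0.014, adjusted p = 0.140, and 0.0345 with 33 degrees of freedom). Rab29, which activates the kinase Lrrk2, had group means of 9.05 to 9.09. Among the remaining genes Rab23, a regulator of Hedgehog signalling, had means of 7.58 to 7.66 and was lowest in APP23 4xLPS and highest in APP23 1xLPS (difference -0.077, SE 0.032, adjusted p = 0.425). Rab28, linked to cilia, ran from 9.27 to 9.33 and Rab40c, which forms part of a ubiquitin ligase, from 9.35 to 9.42. Rab42 was steady at 5.97 to 5.98.

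Counted by comparison, 2 of 369 pairs of a Rab gene and a 2-group comparison were called, those of Rab6b and Rab19. That is 0.542% of the pairs, beside 0.534% over all entries. There were 37 at an unadjusted p under 0.05 (10.03%, beside 11.98% over all entries), and 9 were called with 33 degrees of freedom (2.44%, beside 3.74%). The Rab counts were thus near or below the general rate. After 1xLPS in wildtype mice limma called 0 of 41 Rab genes, beside 0.44% of all entries, with 6 Rab genes at an unadjusted p under 0.05 and 14.9% of all entries, and 0 called with 33 degrees of freedom (6.05% of all entries). The median difference of the Rab genes there was -0.0017, beside 0.0014 over all entries. For 4xLPS in wildtype the medians were 0.00041 and 0.0023, with 5 Rab genes and 17.4% of all entries at an unadjusted p under 0.05, and 2 Rab genes, Rab6b and Rab21, and 8.95% of all entries called with 33 degrees of freedom. For 4xLPS against 1xLPS in wildtype limma called 0 of 41, beside 0.0183% of all entries, with 3 at an unadjusted p under 0.05 (9.13% of all entries) and 0 called with 33 degrees of freedom (0.66%). The smallest p there was that of Rab2a (0.040, SE 0.015, adjusted p = 0.425).

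Within APP23 mice limma called 0 of 41 Rab genes and 0% of all entries in each of the 3 comparisons of treatments. Unadjusted p was under 0.05 for 4 Rab genes after 1xLPS, 1 after 4xLPS and 5 between 4xLPS and 1xLPS, beside 8.47%, 7.62% and 9.74% of all entries. With 33 degrees of freedom 1, 0 and 1 were called, beside 0.715%, 0.247% and 1.48% of all entries. Between genotypes under PBS the median difference was 0.0016, beside 0.0021 over all entries, with 6 Rab genes and 18.1% of all entries at an unadjusted p under 0.05. There 3 were called with 33 degrees of freedom, Rab19, Rab27a and Rab32, beside 9.62% of all entries. After 1xLPS limma called 0 of 41 between genotypes, beside 0.33% of all entries (5 at an unadjusted p under 0.05 beside 12.9%, and 2 called with 33 degrees of freedom beside 4.34%). After 4xLPS it called 0 of 41 and 0% of all entries (2 at an unadjusted p under 0.05 beside 9.54%, and 0 with 33 degrees of freedom beside 1.57%), the smallest p being that of Rab1a (0.032, SE 0.014, adjusted p = 0.495). The genotype differences and the treatment differences share their control libraries, so they are not independent of each other.

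The intervals show, for each gene alone and without adjustment over the 41 genes, what size of difference remained possible on this scale. Over the 41 genes, the 95% intervals for 1xLPS minus PBS in wildtype reached from 0.921-fold to 1.07-fold at their extremes, and those for 4xLPS minus PBS from 0.882-fold to 1.07-fold. For APP23 against wildtype under PBS they reached from 0.902-fold to 1.097-fold. In APP23 they reached from 0.907-fold to 1.12-fold after 1xLPS and from 0.906-fold to 1.11-fold after 4xLPS. Between genotypes they reached from 0.911-fold to 1.10-fold after 1xLPS and from 0.916-fold to 1.11-fold after 4xLPS. For the difference in response between genotypes they were wider, from 0.907-fold to 1.16-fold after 1xLPS and from 0.884-fold to 1.15-fold after 4xLPS.

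For the difference in LPS response between genotypes, limma called 0 of 41 Rab genes after 1xLPS, beside 0.0366% of all entries, and 0 of 41 after 4xLPS, beside 0.522%. At an unadjusted p under 0.05 there were 5 and 5, beside 12.2% and 14.6% of all entries. With 33 degrees of freedom Rab19 was the 1 called after 1xLPS (3.39% of all entries), and 0 were called after 4xLPS (5.3%). The group with the highest mean was APP23 1xLPS for 12 of the 41 genes and APP23 4xLPS for 9, and the group with the lowest was wildtype 4xLPS for 9 and wildtype 1xLPS and APP23 4xLPS for 8 each. How often each group was highest or lowest over all entries was not counted. Means of small groups vary more, and APP23 1xLPS and 4xLPS held 5 and 4 libraries, so these counts are not read as a result.

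The proteins that switch, lipidate or read Rabs were counted from a list of 137 genes, of which 122 had an entry: 8 of prenylation and recycling from membranes, 39 exchange factors, 33 GTPase-activating proteins and 42 effectors. Over the 6 groups 3 of the 122 passed, beside 2.13% of all entries. They were Als2cl, a relative of the Rab5 exchange factor alsin (adjusted p = 0.0322), Tbc1d10c, a TBC-domain GTPase-activating protein of immune cells (0.0332), and Chml, a Rab escort protein (0.0355). Als2cl had group means of 8.37, 8.33 and 8.25 in wildtype PBS, 1xLPS and 4xLPS, and of 8.22, 8.46 and 8.22 in APP23. Its 1xLPS minus PBS difference in APP23 was 0.23 (SE 0.051, adjusted p = 0.123) and the difference in response between genotypes 0.28 (SE 0.064, adjusted p = 0.0677), neither of them called.

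Tbc1d10c was the 1 gene of the 122 called in any of the 9 comparisons of a pair of groups, where 0.534% of all pairs of an entry and a comparison were called. It was lower in APP23 PBS than in wildtype PBS, at 6.80 and 6.92, by a difference of -0.12 (SE 0.024, adjusted p = 0.0127). Rab19 was also lower in that comparison, in which 2.51% of all entries were called. In the averaged genotype comparison Chml was lower in APP23 by -0.056 (SE 0.014, adjusted p = 0.0417) and Tbc1d9b, another TBC-domain protein, higher by 0.039 (SE 0.0095, adjusted p = 0.0369). They were the 1 called as lower and the 1 called as higher of the 122, beside 0.559% and 0.623% of all entries. For 4xLPS minus PBS in wildtype the median difference of the 122 was 0.00021, beside 0.0023 over all entries, and for APP23 minus wildtype under PBS it was -0.00024, beside 0.0021.

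Paralogues can share reads. Among the 820 pairs of coding sequences 10 had an identity of 70% or more: the 3 Rab5 isoforms with each other, and the a and b or d forms of Rab1, Rab2, Rab3, Rab4, Rab6, Rab8 and Rab11. The longest run shared by any pair was 38 bases, in Rab1a and Rab1b. Rab27a and Rab19 had no member closer than 56.9% (Rab8a) and 62.8% (Rab43). Only the 41 genes with an entry were compared, so reads shared with other Rab genes were not examined. Exons of 6 Rab genes overlap another entry on the opposite strand, the longest being those of Rab24, Rab6a and Rab20 (356 bases), and Rab4b contains a miRNA.

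Promoter windows of 300 bases were found in the RefSeq table for 38 of the 41 genes. They had a median of 63.3% G and C, beside 52.7% over the 27026 windows of all genes. Those windows include genes without an entry here, so the Rab genes were not compared with expressed genes alone. GGGCGG occurred in 29 of the 38 (76.3%, and 35.9% of all windows), CCAAT in 20 (52.6% and 38.0%), CACGTG in 5 (13.2% and 7.24%) and GAGGAA in 8 (21.1% and 28.3%), counted on both strands. These are counts of letters, and those of GGGCGG move with base composition.

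In the authors' deposited table of co-expression modules, all 41 Rab genes were listed among 13624 genes, with 11 further Rab symbols that have no entry among the expression values. The authors' deposited table left 14 of the 41 (34.1%) outside a module, beside 26% of all genes, and spread the rest over all 9 named modules, with 7 in turquoise, 5 in blue and 4 each in green and yellow. Rab6b, Rab3d and Rab5a were placed in black and Rab27a in yellow, while Rab19 and Rab3a were in no module of the authors' deposited table. For 6 of the 41 the authors' deposited table gave an unadjusted p under 0.05 for correlation with a trait whose header names 1xLPS, beside 18.4% of all genes, led by Rab3a (r = -0.51, p = 0.000941), Rab39 (r = -0.45, p = 0.00386) and Rab24 (r = 0.41, p = 0.00895).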

How the data were processed

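RNA of sorted microglia (39 samples, 3 ng each) was amplified by Smart-seq v4 and made into Nextera XT libraries, per the labels' protocols, and these kits do not record strand. Tools named in the submitters' processing notes are FastQC, STAR, HOMER, DESeq2 and limma, with the build mm10 and no settings. Expression was deposited as log2 levels, a base assumed here since no source used states it, which the authors had corrected by surrogate variable analysis, per the file headers. A second deposited table holds the authors' score columns (correlations of a gene with a trait or module) and the authors' unadjusted p-values. An expression column without a matching sample label (1 in number) was left out.

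For each of the 10915 entries, limma 3.58.1 (R 4.3.3) estimated 6 group means from 39 libraries with a mean-variance trend, without a filter or pseudocount. Residuals around the group means spanned 24 of 33 directions. The other 9 hold no variance, so they entered as covariates, and counting them as free would make errors too small. Errors with 24 degrees of freedom still leave out any spread that the correction removed. The comparisons were 9 between pairs of groups, 2 interactions and 1 test over the 6 groups, with Benjamini-Hochberg adjustment over all entries, and the genotype average was added later. Alternatives were 33 degrees of freedom, a replicate block, no trend, a filter at the lower quartile of mean level, centring of libraries, the groups of a comparison alone and leaving out each library. The code was tested on simulated data from which 9 random directions were removed. The correction need not have removed random directions, so error rates in the present values were not tested. Values after ± are SDs between libraries.

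The members and lists were chosen with earlier results of these data known. All members may be named with their level, and full statistics were given for those called or, where none was, that of smallest p, and for others picked out after their values were seen. The promoters shown were those of Rab6b, Rab6a, Rab19 and Rab27a, a choice made after the values were seen, whereas the rule had taken the members of smallest p over the 6 groups. Up to 4 called regulators were named per comparison by smallest p. Coding sequences and exons were those of GENCODE M21 (GRCm38, matched by symbol, principal transcripts, all 41 found), aligned with Biopython 1.88.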

Additional observations from a re-analysis of the deposited data

Results flagged for a closer look

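In 8 of 246 groups of 4 to 9 libraries, 1 library stood apart from the rest of its group for a Rab gene, where chance gives about 1 in 20. These 8 values lay in 6 libraries. Rab14 (11.2) and Rab1a (11.07) were both low in APP23 1xLPS library 3, where the nearest libraries were at 11.24 and 11.12. Rab5b (8.662) and Rab5c (8.327) were both low in wildtype 4xLPS library 3, with the nearest at 8.713 and 8.408. Rab18 was low in wildtype 4xLPS library 5 (10.64, nearest 10.69), Rab43 in APP23 PBS library 2 (10.24, nearest 10.31) and Rab42 in wildtype 1xLPS library 3 (5.913, nearest 5.969). Rab32 was high in wildtype PBS library 5 (10.67, nearest 10.62).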

How the results depend on the processing

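The numbers of Rab genes called that moved by over 1.5 times are given here with, in brackets, those of all entries. With 33 degrees of freedom 7 (2300, beside 233) were called over the 6 groups, 2 (977, beside 165) for wildtype 4xLPS minus PBS, 1 (78) for APP23 1xLPS minus PBS, 1 (162) for APP23 4xLPS minus 1xLPS, 3 (1050, beside 274) and 2 (474, beside 36) between genotypes under PBS and after 1xLPS, and 1 (370, beside 4) for the 1xLPS interaction. With the replicate block these were 6 (1399) over the 6 groups, 1 (44) for APP23 1xLPS minus PBS, 2 (752) and 1 (257) between genotypes under PBS and after 1xLPS, and 1 (245) for that interaction. With the groups of a comparison alone they were 1 (27), 2 (886), 2 (342) and 1 (320) in those 4 comparisons. With the filter on low values, which drops Rab19 and Rab3a among others, 0 (239) were called between genotypes under PBS and 1 (115) in the averaged comparison. Without the trend and with libraries centred, all 13 counts stayed within 1.5 times, and no named difference reversed in any alternative run. Same-numbered libraries did not vary together (correlations -0.378 to 0.283 over 79 pairs, 17 above 0.1, with 3 of 39 libraries closest to one of their own number), so the block rests on a number only.

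Leaving out 1 library gave 0 to 2 calls over the 6 groups and between genotypes under PBS, 0 to 1 for wildtype 4xLPS minus PBS, 0 to 1 between genotypes after 1xLPS, 1 to 2 in the averaged comparison and 0 to 0 in the other 8. Between genotypes under PBS there were 2 calls without wildtype PBS 5, wildtype 1xLPS 3 or 9, wildtype 4xLPS 2, APP23 1xLPS 5 or APP23 4xLPS 1 or 3, and 0 without wildtype PBS 8 or APP23 PBS 1, 2 or 6. Over the 6 groups there were 2 without wildtype PBS 5, and after 1xLPS 1 between genotypes without wildtype 1xLPS 7. Reads per library are unknown, and no counting error is given.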
